A study of Mus musculus with 8 samples.

Results

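The iron and heme genes Fth1, Ppox, Alas2 and Hba-a1 were followed through 12 spots of a 2-colour cDNA array that holds 20794 spots. Fth1 had 4 spots, Ppox 1, Alas2 1 and Hba-a1 6, so that these were 4 of 8653 named genes. The genes had been picked from their mean log2 ratio over all arrays in an earlier look at the same values, where Fth1, Ppox and Hba-a1 were positive and Alas2 was negative. That quantity is therefore described below without a test.

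The RNA came from brain of 4 male mice of the genotype ADAR-/-/GluR-BR/R at 19 weeks of age. They lack the RNA editing enzyme ADAR2 (gene Adarb1) and carry, on both chromosomes, GluR-B (gene Gria2) alleles for the arginine variant of this AMPA receptor subunit. Each mutant was hybridised on 2 arrays against 1 pool of wildtype brain RNA (4 males, also 19 weeks old, though the labelling protocol gives another number of animals), with the mutant RNA in Cy5 on one array and in Cy3 on the other. The mouse is the replicate (n = 4), both arrays of a mouse share its RNA, and the pool is a single control sample, so that the spread between wildtype mice does not enter. In whole-tissue RNA, fewer cells of a type and less RNA per cell cannot be told apart. An array ratio gives no level, so the labelled tissue could not be checked by the abundance of brain markers.

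Iron that a cell does not use is stored in ferritin, a hollow shell of heavy chains (Fth1), which oxidise the iron, and light chains (Ftl1). Heme is iron in a porphyrin ring. Its synthesis starts in the mitochondrion with 5-aminolevulinate synthase (Alas1 in most cells, Alas2 in red cell precursors), passes through the cytosol, and ends again in the mitochondrion with protoporphyrinogen oxidase (Ppox) and ferrochelatase (Fech). Heme binds to globin chains, and the alpha chain of adult hemoglobin is encoded by the near-identical genes Hba-a1 and Hba-a2. In brain, ferritin is abundant in oligodendrocytes and microglia, and hemoglobin RNA is known from residual blood and, at low level, from neurons. Messenger RNAs of ferritin chains and Alas2 carry iron-responsive elements in their leaders, through which iron regulatory proteins such as Aco1 control translation.

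The dye of each sample is labelled, but the channel on top of the deposited ratio is not. Each value below is a log2 ratio of the 2 channels after the median of its array was subtracted. The mean ratio is the average of both arrays of a mouse. It compares mutant with pool if every array was turned to one direction. For ratios of Cy5 to Cy3 it is a dye effect of the spot, in which a difference between mutant and pool cancels. The swap component subtracts a mouse's array with mutant RNA in Cy3 from its array with mutant RNA in Cy5 and divides by 2. It is mutant over pool for ratios of Cy5 to Cy3, and a dye effect for ratios turned to one direction. Which of these applies is unknown, so neither quantity is known to be a difference between mutant and wildtype. No value here has a direction between them, and "positive" and "negative" refer to the sign of the deposited ratio. Gene names rest on a shift of 11 spots between annotation and values that was found in the values. The names of genes with a single spot, such as Ppox and Alas2, have no other check here.

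The 8 arrays held 20211 to 20559 usable ratios each, and all 12 spots had a value on every array. The spread of all spots, as a standard deviation of their means over 4 arrays, was 0.521 with the mutant in Cy5 and 0.904 with the mutant in Cy3. Over 18797 spots the mean ratio and the swap component were inversely related (Pearson r = -0.56, a description over spots that share arrays). Of 3 spots of Adarb1, the disrupted gene, 18422 and 18759 had swap components of -1.23 ± 0.163 and -1.33 ± 0.267 (moderated SE of limma, n = 4) and 14946 had -0.10 ± 0.127. The mean ratios were 0.70, 0.26 and 0.12 in spots 18422, 18759 and 14946. Whether these spots lie inside the disrupted stretch is unknown.

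The upstream sequences are shown as a description of the 4 genes, and because the alpha globin pair cannot be separated by sequence at its start. A link between these letters and the sign of a ratio was not tested. Each line gives the 100 bases before a transcript start, 5′ to 3′ on the gene's strand, from RefSeq (GRCm38.p6). Capitals mark TATAA and CCAAT on either strand.
Fth1, chr19:9982546-9982645, plus strand: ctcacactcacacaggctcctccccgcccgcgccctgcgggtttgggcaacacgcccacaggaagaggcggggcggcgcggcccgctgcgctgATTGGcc
Ppox, chr1:171281187-171281286, minus strand: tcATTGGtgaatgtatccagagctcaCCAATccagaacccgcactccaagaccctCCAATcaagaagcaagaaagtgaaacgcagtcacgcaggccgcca
Alas2, chrX:150547317-150547416, plus strand: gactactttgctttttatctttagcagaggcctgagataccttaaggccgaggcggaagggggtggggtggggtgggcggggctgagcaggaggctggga
Hba-a1, chr11:32283572-32283671, plus strand: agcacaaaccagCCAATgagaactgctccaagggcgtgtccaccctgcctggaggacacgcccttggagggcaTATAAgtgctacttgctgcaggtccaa
Hba-a2, chr11:32296392-32296491, plus strand: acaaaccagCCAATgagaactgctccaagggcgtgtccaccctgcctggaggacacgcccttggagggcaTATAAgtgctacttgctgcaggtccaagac

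Hba-a1 and Hba-a2 were identical over 297 of 297 aligned bases of their windows (250 bases before to 50 after the start), with the listed starts 3 bases apart. The array annotation names 6 spots for Hba-a1 and 0 for Hba-a2, and a ratio of a spot named Hba-a1 may therefore hold RNA of both genes. The motif TATAA, searched on both strands, lay at position -27 from the start of Hba-a1 and at position 27 after the start of Fth1 shown here. It lay at positions -208 and -207 of Alas2, where its matches on opposite strands overlap, and not in the window of Ppox. This motif occurs in 24.9% of 32851 promoter windows of the same length. CCAAT (37.4% of windows) occurred 4 times before Ppox, once before Hba-a1 and once before the Fth1 start shown, and not before Alas2. GATAA, the core letters bound by GATA factors of red cell precursors (25.4% of windows), lay at -182 of Hba-a1 and -86 of Alas2.  CACCC, read by KLF factors of the same cells (57.5% of windows), lay at -167 and -60 of Hba-a1 and at -40, -35 and -30 of Alas2. A second, upstream start of Fth1, not shown, had TATAA at -123, GATAA at -175 and CACCC at -98, and no CCAAT. Neither GATAA nor CACCC was in the window of the Fth1 start shown or of Ppox. A match is a description of letters and not a binding site.

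Fth1, the heavy chain of ferritin, was positive on 31 of 32 spot values, and every spot was higher with the mutant in Cy3. Spot 1336 had 0.59, 0.61, 1.26 and 1.12 in mice 1 to 4 with the mutant in Cy5 and 1.76, 2.09, 2.41 and 2.05 with the mutant in Cy3. Spot 19039 had 0.63, 0.62, 0.83 and 0.73 in Cy5 and 1.67, 1.63, 1.84 and 1.90 in Cy3. In both spots the orientations did not overlap, and mice 3 and 4 lay above mice 1 and 2 with the mutant in Cy5.

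Spot 277 had 0.42, 0.32, 0.20 and 0.08 with the mutant in Cy5 and 1.27, 1.19, 1.61 and 1.43 in Cy3. Spot 601 had 0.24, -0.50, 0.76 and 0.52 in Cy5 and 1.95, 1.73, 1.74 and 1.67 in Cy3. The value of mouse 2 in Cy5 was the single negative one of Fth1. Averaged over its 4 spots, Fth1 stood at 0.53 ± 0.213 with the mutant in Cy5 and 1.75 ± 0.115 with the mutant in Cy3 (SD, n = 4 mice).

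The mean ratios of the Fth1 spots were 0.82 ± 0.0727, 1.01 ± 0.276, 1.49 ± 0.286 and 1.23 ± 0.11 for 277, 601, 1336 and 19039 (SD, n = 4). Spot 1336 had rank 2 from the top of 20595 spots and spot 277 rank 1673. Over all spots the mean ratio passed an adjusted p of 0.05 by limma in 30.4%, 17.0% as positive and 13.3% as negative, which describes the arrays and is not read against the genes chosen on it. The 4 spots agreed in the sign of the mean ratio and in the step between orientations (pairwise Pearson r = 0.845 to 0.964 over 8 arrays, which share that step) but differed in size, by 0.267 to 0.671 on average between spots of a pair. They did not agree on the order of the mice within an orientation. Over the 4 arrays with the mutant in Cy5, r was -0.53, -0.85 and -0.69 between spot 277 and spots 601, 1336 and 19039, and 0.82 to 0.97 among the other 3 spots. Over the 4 arrays in Cy3, r was -0.33, -0.64 and -0.57 between spot 601 and spots 277, 1336 and 19039, and 0.50 to 0.84 among the other 3. On one array their standard deviation lay between 0.18 and 0.524. The spots with numbers around those of Fth1 did not share its values. The median mean ratio of 48 neighbours by spot number was -0.54 for spot 277 and 0.24 for spot 19039, with the others between.

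**Figure D1:**
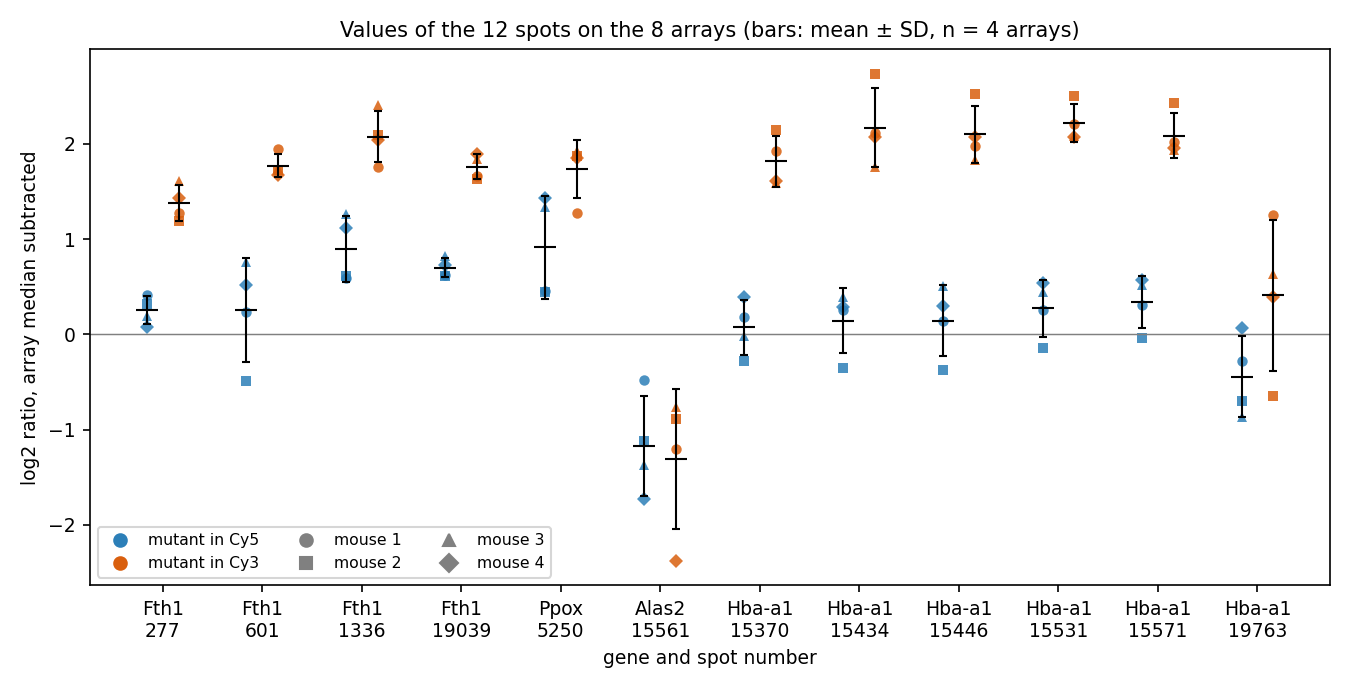
Log2 ratios (y axis, array median subtracted) of the 12 spots (x axis) on each array, in blue with the mutant RNA in Cy5 and in orange with it in Cy3. Symbols stand for mice and bars for mean ± SD of 4 arrays. Apart from Alas2, all spots had a higher mean with the mutant in Cy3, and the Alas2 spot was negative on all 8 arrays.

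Ppox, which oxidises protoporphyrinogen in the step before ferrochelatase, was measured by 1 spot, 5250, and was positive on all 8 arrays. It had 0.45, 0.44, 1.33 and 1.43 in mice 1 to 4 with the mutant in Cy5 and 1.28, 1.87, 1.92 and 1.86 with the mutant in Cy3. Mice 1 and 2 were low and mice 3 and 4 high in Cy5, and the orientations overlapped in the 1.28 of mouse 1. The mean was 0.92 ± 0.54 in Cy5 and 1.73 ± 0.305 in Cy3 (SD, n = 4). Its mean ratio was 1.32 ± 0.38, rank 27 of 20595 spots. No other spot carries this name, so that agreement within the gene could not be examined.

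Alas2, the first enzyme of heme synthesis in red cell precursors, was also measured by 1 spot, 15561, and was negative on all 8 arrays. It had -0.48, -1.12, -1.37 and -1.73 with the mutant in Cy5 and -1.21, -0.89, -0.77 and -2.38 with the mutant in Cy3. The orientations overlapped, and mouse 4 was the lowest in each. The mean was -1.18 ± 0.525 in Cy5 and -1.31 ± 0.737 in Cy3, and the mean ratio was -1.24 ± 0.549 (SD, n = 4). Without mouse 4 the mean ratio was -0.97. Over all spots with 8 values, 13.1% were positive and 8.69% negative on every array, and Ppox, 3 of 4 Fth1 spots and Alas2 were among these.

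Hba-a1, alpha globin, gave values near 0 with the mutant in Cy5 and values near 2 with the mutant in Cy3 in 5 of its 6 spots. Spot 15531 had 0.25, -0.14, 0.44 and 0.54 in mice 1 to 4 in Cy5 and 2.21, 2.51, 2.08 and 2.08 in Cy3. Spot 15434 had 0.26, -0.36, 0.39 and 0.29 in Cy5 and 2.11, 2.74, 1.75 and 2.08 in Cy3. In these spots, mouse 2 was lowest in Cy5 and highest in Cy3, and the orientations were separated by a wide gap.

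The same held for spots 15370, 15446 and 15571, whose means were 0.07, 0.14 and 0.34 in Cy5 and 1.82, 2.10 and 2.09 in Cy3. Mean ratios of the 5 spots ran between 0.95 and 1.24, with standard deviations over 4 mice of 0.0421 to 0.115. The pattern over arrays was close between the 5 spots (pairwise Pearson r = 0.976 to 0.999 over 8 arrays, 10 pairs). It held within the orientations too, with r of 0.609 to 0.997 over the 4 arrays in Cy5 and 0.797 to 0.986 over the 4 in Cy3, and on one array their standard deviation was 0.067 to 0.221. Over 2256 genes with several spots, of which the first pair with 8 values was taken, the median r was 0.138 (quartiles -0.242 and 0.495). These pairs were not selected, whereas the 5 spots were kept after the Hba-a1 spot with the lowest correlation was set apart. With that spot the range of r started at 0.478. The r over 8 arrays also holds the step between orientations, so the 2 ranges are not alike. Because the naming shift was found in these same values, agreement between spots of the same name is not a separate check of the names.

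Spot 19763, set apart here after its values were seen, departed from the other Hba-a1 spots. It had -0.28, -0.70, -0.87 and 0.07 with the mutant in Cy5 and 1.25, -0.64, 0.64 and 0.39 in Cy3. Its mean ratio was -0.02 ± 0.501 (SD, n = 4), and it differed from the other 5 spots by 0.963 to 1.26 on average. Its correlation with them was 0.478 to 0.593 over 8 arrays. Over the 4 arrays in Cy5 this correlation was 0.108 to 0.852, and over the 4 in Cy3 it was -0.86 to -0.47. In mouse 2 spot 19763 was negative in both orientations, while the other 5 spots stood between 2.15 and 2.74 with that mouse in Cy3. The gene mean over all 6 spots was 0.94 ± 0.103, and the median over spots gave 1.12.

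**Figure D2:**
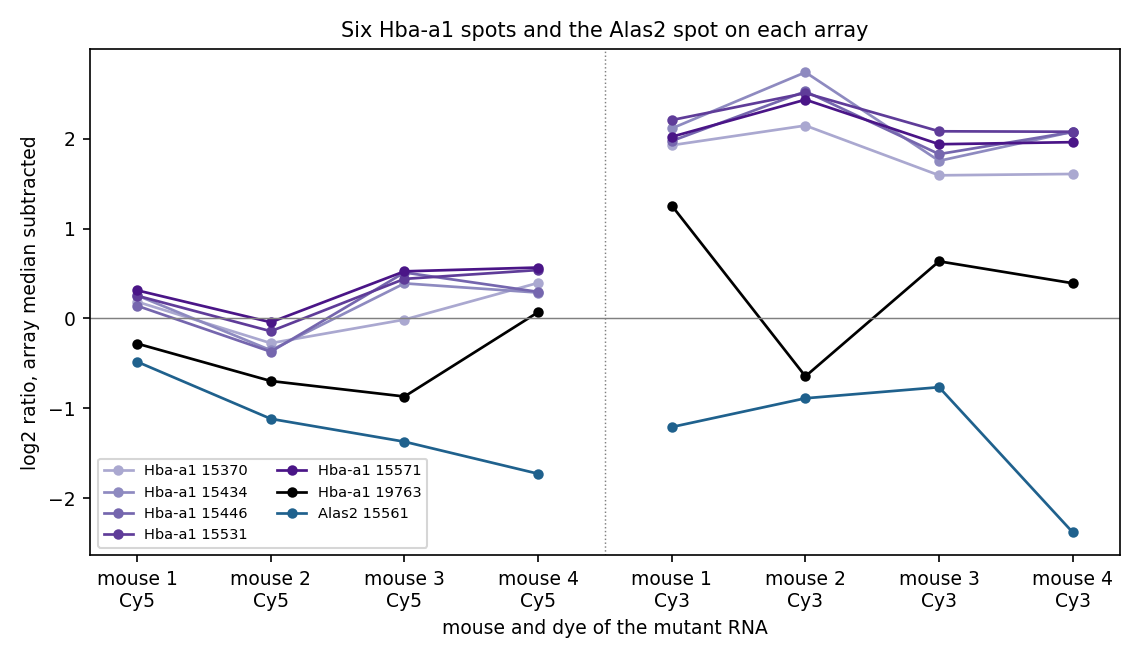
Log2 ratios (y axis, array median subtracted) of the 6 Hba-a1 spots and the Alas2 spot on each array (x axis: mouse and dye of the mutant RNA). Lines join the arrays of one orientation. The 5 purple lines lie together near 0 in Cy5 and near 2 in Cy3, the black line of spot 19763 lies below them, and the blue line of Alas2 is below 0 throughout.

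The Alas2 spot lies 10 spot numbers before Hba-a1 spot 15571, and the values of these neighbours by number had opposite signs on 7 of 8 arrays. Spot numbers were not matched to places on the slide. The 48 spots around each Hba-a1 spot had median mean ratios of -0.66 to -0.19, and those around Alas2 had -0.42. With runs of 48 spots centred, the mean ratios of the 5 Hba-a1 spots became 1.29 to 1.65 and that of Alas2 -0.81. Centring thus moved Alas2 and Hba-a1 upwards alike and left their opposite signs.

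In the swap component, 11 of 12 spots were negative. The 5 Hba-a1 spots ran from -1.01 to -0.87, among the lowest 0.739% of 18797 spots, and spot 19763 had -0.43. The Fth1 spots had -0.56, -0.76, -0.59 and -0.53, Ppox had -0.41 ± 0.219 and Alas2 0.07 ± 0.329 (SD, n = 4). Fitted with limma over all spots, 9 of the 12 passed an adjusted p of 0.05, namely the 4 Fth1 spots (0.04 to 0.0458) and 5 Hba-a1 spots (0.0383 each). Over all spots 7.84% passed, 6.43% on the negative and 1.41% on the positive side. This is given as a description, since the component comes from the same arrays as the mean ratio and follows it over all spots. The count fell to 0 without any one of mice 1 to 4, with values as deposited, with arrays scaled to one spread and with runs of spots centred. 

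Scaling each array to the same median absolute deviation changed the swap components unequally. The swap component of Ppox became -0.09, and those of Fth1 spots 277, 601, 1336 and 19039 became -0.36, -0.56, -0.22 and -0.21. The swap components of the 5 Hba-a1 spots became -0.78 to -0.61. That of Alas2 changed sign to -0.27. As gene means, the mean ratios of Ppox, Fth1 and Alas2 moved less, to 1.31, 1.06 and -1.34. For Hba-a1 the mean ratio moved about as far as the swap component, from 0.94 to 0.75 against -0.86 to -0.67. Arrays with the mutant in Cy3 had the wider spread, and its part in the orientation difference of these spots was not tested.

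**Figure D3:**
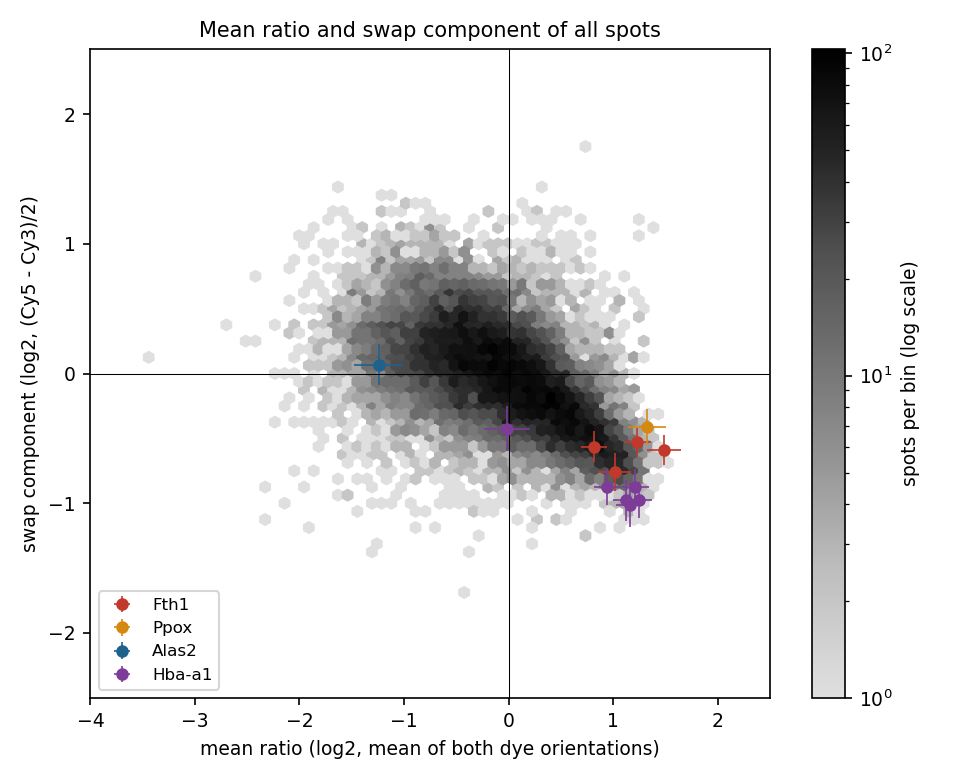
Mean ratio (x axis, log2) and swap component (y axis, log2) of 18797 spots, shaded by the number of spots per bin on a log scale. Coloured points are the 12 spots with moderated SE of limma (n = 4). Fth1, Ppox and 5 Hba-a1 spots lie at the lower right end of the cloud, Hba-a1 below Fth1 and Ppox, and Alas2 lies at the left near a swap component of 0.

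Across the 8 arrays the gene means of Fth1 and Hba-a1 followed each other (Pearson r = 0.968), Ppox followed them less closely (0.838 and 0.78), and Alas2 followed none (-0.163, -0.381 and -0.132 with Fth1, Ppox and Hba-a1). The dye orientation is shared by all of these points. Among 8119 genes with 8 values, those most like Fth1 were Dppa4 (r = 0.998), Antxr1 (0.997) and Rbx1 (0.996), and 313 genes had r above 0.95. For Hba-a1 they were Serbp1 (0.998), Nap1l5 (0.997) and Tubb5 (0.996), with 361 genes above that value. For Ppox they were Nectin1 (0.985), Ndufb4 (0.967) and Fbxw7 (0.96), with 5 genes above it. For Alas2 they were Mios (0.959), Mecr (0.951) and Rars (0.941), with 2 above it. More genes thus had a profile like that of Fth1 or Hba-a1 than like that of Ppox or Alas2. These counts are not alike, since Fth1 and Hba-a1 are means of 4 and 6 spots and Ppox and Alas2 are 1 spot each. The step between orientations, large in Fth1 and Hba-a1, also enters r.

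The other genes of iron handling were tested with limma on gene means over spots, with Benjamini-Hochberg adjustment over 8605 genes, of which 29.1% passed in the mean ratio, 17.5% as positive and 11.6% as negative. Of 22 measured iron genes, 5 passed as positive and 1 as negative, and the median was 0.29 against -0.02 for all genes. Ftl1, the light chain that completes the ferritin shell, had the pattern of Fth1. Its spot had 0.44, 0.21, 0.25 and 0.41 with the mutant in Cy5 and 1.97, 2.08, 1.90 and 1.81 in Cy3, with no overlap. Its mean ratio was 1.13 ± 0.114 (moderated SE, n = 4, adjusted p = 0.00755) and its swap component -0.81 ± 0.104 (adjusted p = 0.0297).

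Pcbp1, an RNA-binding protein that also delivers iron to ferritin, had 1.07 ± 0.113 (adjusted p = 0.00755), and its swap component was -0.59 (adjusted p = 0.0349). Heph, hephaestin, an oxidase for exported iron, had 0.97 ± 0.124 (adjusted p = 0.0076) with little difference between orientations, at 0.84 in Cy5 and 1.10 in Cy3. Cp, ceruloplasmin, the related oxidase of plasma and astrocytes, was negative at -0.79 ± 0.215 (adjusted p = 0.0419), and its 2 spots had -0.86 and -0.71. The iron-sulfur cluster genes Iscu, the scaffold, and Lyrm4 had 0.64 ± 0.135 (adjusted p = 0.0202) and 0.50 ± 0.133 (adjusted p = 0.0397). The spots of Lyrm4 differed, at 0.85 and 0.15.

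Ftl1, Pcbp1 and Heph kept an adjusted p below 0.05 by limma without any one mouse. With the mutant in Cy5 alone they did not (adjusted p = 0.215, 0.128 and 0.0749), but in that setting 0 of 19898 spots passed. Cp lost it without mouse 2, 3 or 4, and Iscu and Lyrm4 without any one of the 4 mice. Trf, transferrin, the iron carrier of plasma and oligodendrocytes, did not pass (0.44 ± 0.149, adjusted p = 0.0752), and its spots disagreed, 7267 at 0.92 and 17201 at -0.05. Aco1, which binds iron-responsive elements, stood at 0.18 ± 0.147 (adjusted p = 0.375). In the swap component, 3 of 21 iron genes passed, all negative: Ftl1, Pcbp1 and Isca1, a further iron-sulfur protein (-0.58 ± 0.116, adjusted p = 0.0393), where 7.90% of 8119 genes passed, 6.82% as negative. No call in the swap component was kept when any one mouse was left out.

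Of 17 measured genes of heme synthesis and turnover, 2 passed as positive and 1 as negative in the mean ratio, a smaller share than the 29.1% of all genes, with a median of -0.14. Fech, which inserts iron into the ring right after the step of Ppox, was positive at 0.69 ± 0.118 (adjusted p = 0.012). It had 0.10, 0.63, 0.27 and 0.57 with the mutant in Cy5 and 1.31, 0.89, 0.83 and 0.90 in Cy3, and its 2 spots had 0.62 and 0.75. Without mouse 2 its call was lost. Pgrmc1, a heme-binding membrane protein that associates with ferrochelatase, had 1.14 ± 0.122 (adjusted p = 0.00755) and passed in the swap component as well (-0.73, adjusted p = 0.0297), as 1 of 16 genes.

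Alad, the second enzyme of the pathway, was negative on all 8 arrays, with a mean ratio of -0.93 ± 0.135 (adjusted p = 0.00879). Its call was kept without any one mouse and lost with the mutant in Cy5 alone, where 0 of 19898 spots passed. Alas1, the first enzyme in most cells, had -1.11 ± 0.363 and did not pass (adjusted p = 0.0674), with mouse 3 at -0.70 in Cy5 and 0.99 in Cy3, and it passed without mouse 3 (adjusted p = 0.0404). Uros, the cytosolic uroporphyrinogen synthase, had -0.03 ± 0.267 (adjusted p = 0.934) and no value on 2 arrays, so that its values of mice 1 and 3 rest on 1 array each. Hmox1, which breaks heme down, had -0.01 ± 0.198 (adjusted p = 0.969).

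**Figure D4:**
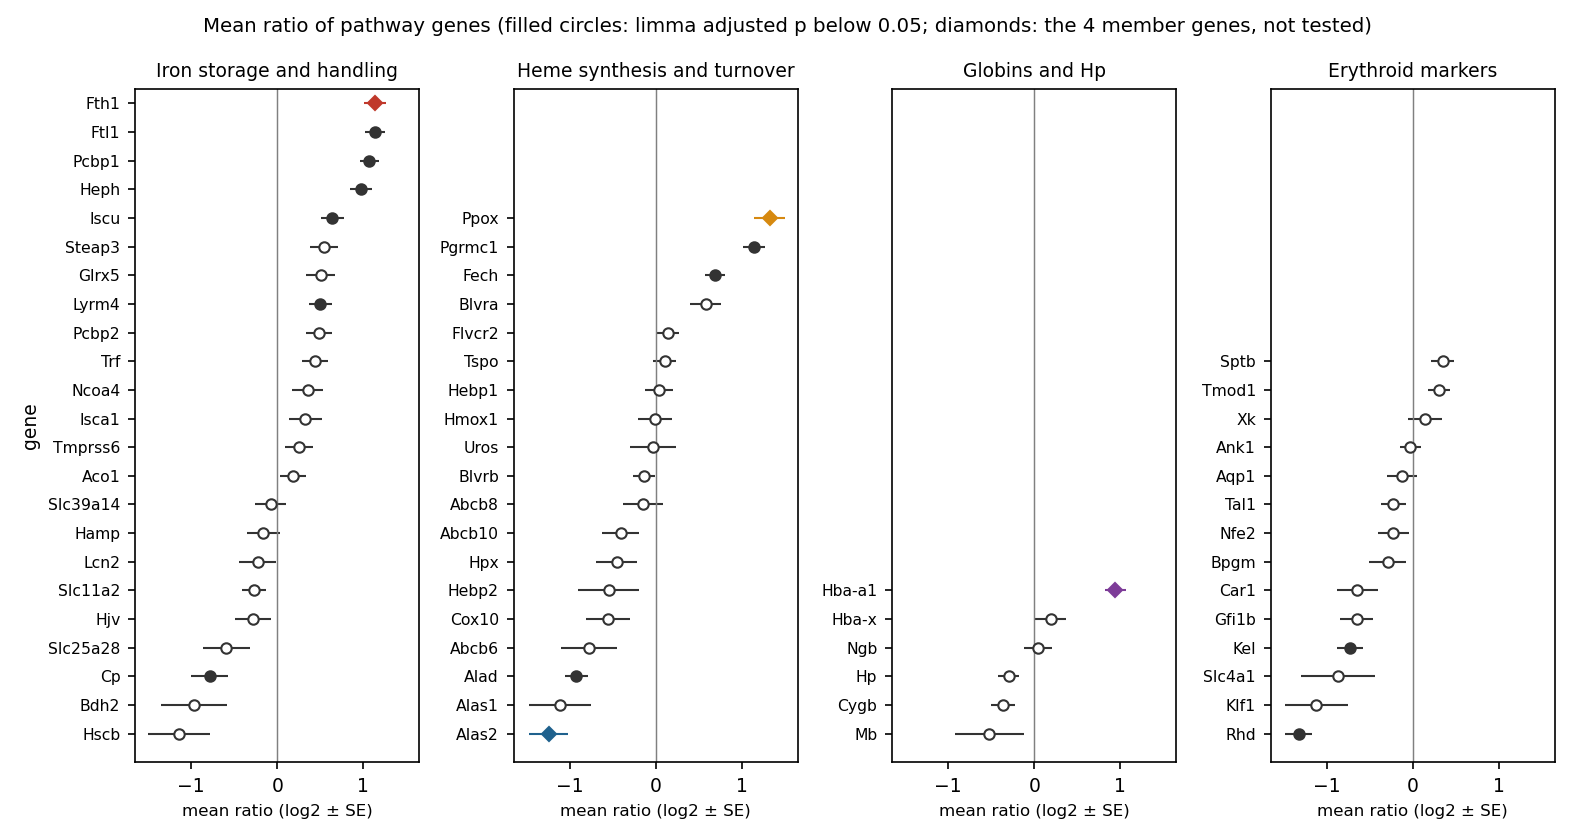
Mean ratio (x axis, log2 ± moderated SE, n = 4 mice) of each measured gene (y axis) of iron handling, heme synthesis and turnover, globins with haptoglobin, and erythroid markers. Filled circles passed an adjusted p of 0.05 and diamonds are the 4 genes described above, which were not tested. Ftl1 lies beside Fth1, Fech and Ppox lie right of 0, Alad, Alas1 and Alas2 lie left of 0, and no other globin comes near Hba-a1.

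None of the other measured globins or the hemoglobin-binding protein haptoglobin (Hp) passed by limma in the mean ratio (0 of 5) or the swap component (0 of 4). At an unadjusted p below 0.05 there was 1 in each, Cygb and Hba-x. Hba-x, the embryonic alpha-like globin, had 0.19 ± 0.18 in the mean ratio (adjusted p = 0.445). It stood at -0.49 with the mutant in Cy5 and 0.88 in Cy3, a swap component of -0.68 ± 0.2 (adjusted p = 0.0809). Ngb, the globin of neurons, had 0.04 ± 0.165, Cygb, which is widely expressed, had -0.36 ± 0.139, and Mb, of muscle, had -0.52 ± 0.405 (adjusted p = 0.858, 0.0989 and 0.363). Mb had no value on 2 arrays, so that its values of mice 3 and 4 rest on 1 array each. No beta globin was among the named spots.

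Of 14 measured markers of red cells and their precursors, 11 were negative and 3 positive in the mean ratio, with a median of -0.26. By limma 0 passed as positive and 2 as negative, against 17.5% and 11.6% of all genes, and 1 was positive at an unadjusted p below 0.05 (Sptb). The positive ones were Sptb (0.35), Tmod1 (0.30, positive on all 8 arrays) and Xk (0.14). Spots of the membrane skeleton genes disagreed. Sptb, beta spectrin, had 0.90 and 0.68 in spots 2423 and 5306 and -0.53 in spot 15507, and Ank1, ankyrin, had 0.66 in spot 3661 and -1.0 in spot 15430, each past the threshold over all spots. With the median of a gene's spots, Sptb passed as well. Rhd, a red cell membrane protein, was negative on all 8 arrays at -1.33 ± 0.159 (adjusted p = 0.00755), and Kel, a blood group peptidase, stood at -0.73 ± 0.15 (adjusted p = 0.0189). Rhd kept its call without any one mouse and Kel lost it without mouse 1, 2 or 3. Both lost it with the mutant in Cy5 alone, where 0 of 19898 spots passed. Klf1, the red cell transcription factor, had -1.12 ± 0.367 and Slc4a1, the anion exchanger of the membrane, -0.86 ± 0.431, and neither passed (adjusted p = 0.0681 and 0.179), though Klf1 did without mouse 4 (adjusted p = 0.0362). In the swap component Kel (0.56, adjusted p = 0.0327) and Car1, carbonic anhydrase of red cells (0.61, adjusted p = 0.0376), passed as positive, opposite to Hba-a1, where 1.07% of all genes passed as positive. Sptb spot 15507, Ank1 spot 15430 and Rhd spot 15517 lie between Hba-a1 spots 15370 and 15571. The neighbours of the Hba-a1 spots in that stretch had median mean ratios of -0.45 to -0.19. Rhd also passed with runs of 48 spots centred, and the part of array position in these values was not tested. The part of blood content in the ratios of Hba-a1 and Alas2 was not tested.

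Markers of other cells of the brain had either sign, and those named were picked after their values were seen. Over all genes 29.1% passed in the mean ratio, 17.5% as positive and 11.6% as negative. All 4 measured neuron markers were positive and 3 passed, with a median of 1.04, as did 3 of 4 astrocyte and 2 of 4 oligodendrocyte markers, with medians of 0.78 and 0.50. Cnp, an enzyme of myelin-forming cells that are rich in ferritin, had 1.08 ± 0.131 and Mobp 0.69 ± 0.122 (adjusted p = 0.00755 and 0.0128), while Mbp, at 0.31 ± 0.131, did not pass (adjusted p = 0.128). Microglia markers were split between C1qb at 0.94 ± 0.118, Aif1 at -0.96 ± 0.157 and C1qa at -0.02 ± 0.168 (adjusted p = 0.0076, 0.0108 and 0.929). The call of Mobp was lost without mouse 3. Of 2 endothelial markers Cdh5 was positive and Pecam1 negative, at 0.82 ± 0.125 and -1.51 ± 0.317, and both passed, Pecam1 with no value on 1 array and not without mouse 2 or 4. All 3 leukocyte markers were negative and passed, with a median of -0.89, and S100a9 did not pass without any one mouse. The astrocyte marker Aqp4 did not pass without mouse 1, 2 or 3. In the swap component, 2 of 4 neuron, 1 of 4 astrocyte and 2 of 4 oligodendrocyte markers passed by limma, all as negative like Fth1 and Hba-a1. Of 3 microglia, 1 endothelial and 3 leukocyte markers, 0 passed. Over all genes 7.90% passed in this component, 6.82% as negative. Over all spots its calls fell to 0 without any one mouse. The part of cell composition in the values of Fth1 and Ftl1 was not tested.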

How the data were processed

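Brain total RNA of each mutant and of the wildtype pool was reverse transcribed and dye-labelled indirectly, per the labels' protocols. Scanner and normalisation: not given in the sources used here. Log2 ratios, each array offset by a constant of its own, were deposited. Scale and constant were inferred from the values, of which 4.76% to 8.73% per array are log2 of simple fractions, while the numerator and the centring rule stay unknown. The deposited medians ran from -0.57 to -0.0045. A value recurring at the top of each array (1 to 30 times), taken as a code for a ratio of 100000, and 221 to 553 empty cells per array were treated as missing.

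Each array's median was subtracted, which moved the median mean ratio of all spots from -0.25 to -0.09. limma 3.58.1 in R 4.3.3 (lmFit and eBayes, intercept only) was fitted to the 4 mouse values of the mean ratio (20595 spots, of which 6256, 30.4%, passed) and of the swap component (18797 spots, 1473 passed), with Benjamini-Hochberg adjustment at 0.05. A mouse with 1 usable array entered the mean ratio with that array. Arrays of one mouse counted as 1 replicate. Spots of one gene were averaged for the gene lists.

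Spots were named by adding 11 to the annotation's number, up to 20000, with symbols of RefSeq (GRCm38.p6). The shift is not in the labels. The small number of mice and arrays limits the precision, spots of one gene can differ, and p-values cover the spread between 4 mutants and not that between wildtypes. Of 96 values of the 12 spots, 5 matched a ratio of whole numbers up to 10 within 0.001 on the log2 scale.

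The members and the lists (iron, heme, globin, erythroid, neuron, astrocyte, oligodendrocyte, microglia, endothelium and leukocyte) were chosen with earlier results of these data known. Named were every spot of the 4 genes, preset enzymes, carriers and globins, up to 6 further genes per list past the threshold with the largest absolute mean ratio, and the 3 genes most correlated with each member. Members of a list named for context (Aco1, Hp, Sptb, Ank1, Tmod1, Xk and the markers of other brain cells) were chosen after their values were seen. Alternatives were values as deposited, one spread for all arrays, runs of 48 spots centred, spots with 8 values, values at small whole-number ratios missing, one dye orientation, names at the same spot number, the median of a gene's spots, and each mouse left out.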

Additional observations from a re-analysis of the deposited data

Results flagged for a closer look

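Of 48 groups of 4 values examined (each spot's mean ratios, swap components and arrays of each orientation), 4 held a value far from the other 3 by Dixon's criterion (the gap divided by the range), which chance meets in about 1 group in 20. Ppox spot 5250 with the mutant in Cy3 had mouse 1 at 1.28 against 1.87, 1.92 and 1.86 in mice 2 to 4 (ratio 0.896). Hba-a1 spot 15571 in Cy3 had mouse 2 at 2.43 against 2.02, 1.94 and 1.96 in mice 1, 3 and 4 (ratio 0.833). The mean ratio of Hba-a1 spot 15434 was 1.07 in mouse 3 and 1.18, 1.19 and 1.18 in mice 1, 2 and 4 (ratio 0.917), and the swap component of Fth1 spot 19039 was -0.58 in mouse 4 and -0.52, -0.51 and -0.51 in mice 1 to 3 (ratio 0.838). In the last 2 cases the range of all 4 mice is small.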

How the results depend on the processing

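Across the settings that kept the names, the 10 of 12 spots with a positive mean ratio numbered 10 or 11 and those with a negative swap component 11 or 12, apart from 7 of 7 where values at small whole-number ratios were missing. Names at the same spot number gave 6 of 12 positive spots, 2 of 11 called in the swap component, and turned the gene means of Fth1 to -0.11, Ppox to -0.38, Alas2 to 0.69 and Hba-a1 to -0.30, the swap component of Ppox to 0.31, the mean ratios of Ftl1 to -0.52, Heph to -0.67, Lyrm4 to -0.46, Fech to -0.32 and Kel to 0.36, and the swap components of Pcbp1 to 0.14 and Kel to -0.086. There the globin and erythroid lists had 3 and 4 calls in the mean ratio, and the iron, heme and erythroid lists 0, 0 and 1 in the swap component. Different spots stand behind these values.

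Calls over all spots in the mean ratio (6256) ranged from 2483 to 3931 without 1 mouse and fell to 0 with the mutant in Cy5 alone, where the iron, heme and erythroid lists also had 0. With the mutant in Cy3 alone, 6625 of 19308 spots and 9 of 22 iron genes passed. Without 1 mouse the iron list had 3 to 5 calls, the heme list 2 to 5 and the erythroid list 1 to 3. The globin list had 1 call as deposited, with runs centred and with the mutant in Cy3 alone. The erythroid list had 4 calls as deposited and 5 with runs centred, and the heme list 5 with runs centred. As deposited, positive calls made up 37.4% in place of 56.1%.

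Calls in the swap component (1473 spots, 9 of the 12) fell to 0 as deposited, with arrays scaled to one spread, with runs centred and without any one mouse (5771 spots at an unadjusted p below 0.05 with all mice). The iron, heme and erythroid lists then had 0 calls as deposited, with one spread and without 1 mouse. With runs centred the iron and erythroid lists had 1 each, and the erythroid list had 0 with values at small whole-number ratios missing. The causes were not tested. Both arrays of a mouse enter as their mean or difference. No paired analysis was possible between groups because the pool is the only control and no wildtype sample shares a mouse number.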
